A study of Caenorhabditis elegans with 8 samples.

Results

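The genes described here encode 10 enzymes of glycolysis in Caenorhabditis elegans: gpi-1, pfk-1.1, aldo-1, aldo-2, tpi-1, gpd-2, gpd-3, pgk-1, enol-1 and pyk-1. They were listed by name, out of 19983 protein-coding genes in the RefSeq annotation of assembly WBcel235. No threshold on a value was used, but the list was made with results of these data known. RNA immunoprecipitation with sequencing (RIP-seq), in which RNA bound to a crosslinked protein is pulled down and read, was run on young adults kept at 25 °C and fixed for 30 min in 2% formaldehyde. One strain, WD656, carries the allele on49, which adds 3xFLAG to MSTR-1 at its own gene F22D6.2; the other, N2, is the wild type with no FLAG. An immunoprecipitate and an input from lysed whole worms were made for each strain, with 2 biological replicates, which makes 4 groups and 8 libraries. Whole worms were used, so fewer cells of a type and less RNA per cell cannot be told apart.

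The deposited result is 1 list of 1207 genomic regions specific to WD656, and 10 of these regions lie in the genes described here. Each region has 1 set of the authors' values: a fold over control at the summit (the position of highest coverage), a p-value and a q-value. The list holds no value per library, so replicate spread and library depth are unknown, and no test between the strains could be made. Every region name carries the label WD656_RIP_2, which may stand for the second RIP replicate of WD656. The meaning of its number is not stated. The sources used here do not say which library served as control. For each region the number of reads over the summit (the pileup) and the control level were solved from the deposited fold and p-value, on the assumption that both came from a Poisson peak caller of the MACS2 type. For the glycolysis genes, 10 of 10 pileups solved to whole numbers, with a tolerance of 0.02 reads. A pileup is a depth at 1 position, so it does not add up over the length of a gene. It is the deepest point of its region, and a wider region offers more positions for it.

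Glycolysis breaks glucose down to pyruvate in the cytosol and yields ATP and NADH. The upper part of the pathway spends ATP to make a sugar bisphosphate and splits it, and the lower part oxidises the resulting triose phosphate and recovers ATP. Most of its steps are reversible and also serve gluconeogenesis, which in worms can draw on fat through the glyoxylate cycle. The steps of hexokinase, phosphofructokinase and pyruvate kinase run one way.

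Of the 10 genes, 7 carried a region in the list and 3 did not. Among all protein-coding genes, 954 of 19983 (4.77%) carried one. Regions were present in gpi-1, aldo-2, tpi-1, gpd-2, gpd-3, enol-1 and pyk-1, and absent from pfk-1.1, aldo-1 and pgk-1. A region with a fold of at least 2 was present in 2 of the 10 (gpi-1 and pyk-1), against 2.98% of all protein-coding genes. A region with a −log10 q of at least 5 was present in 4 (gpi-1, aldo-2, gpd-2 and pyk-1), against 2.9%. The members were chosen with results of these data known, so no test is given for these counts. The 10 regions each lay wholly inside 1 gene of the list, and none touched a further protein-coding gene. The nearest miss was pfk-1.1, whose closest region lay 5345 bp outside its span.

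**Figure D1:**
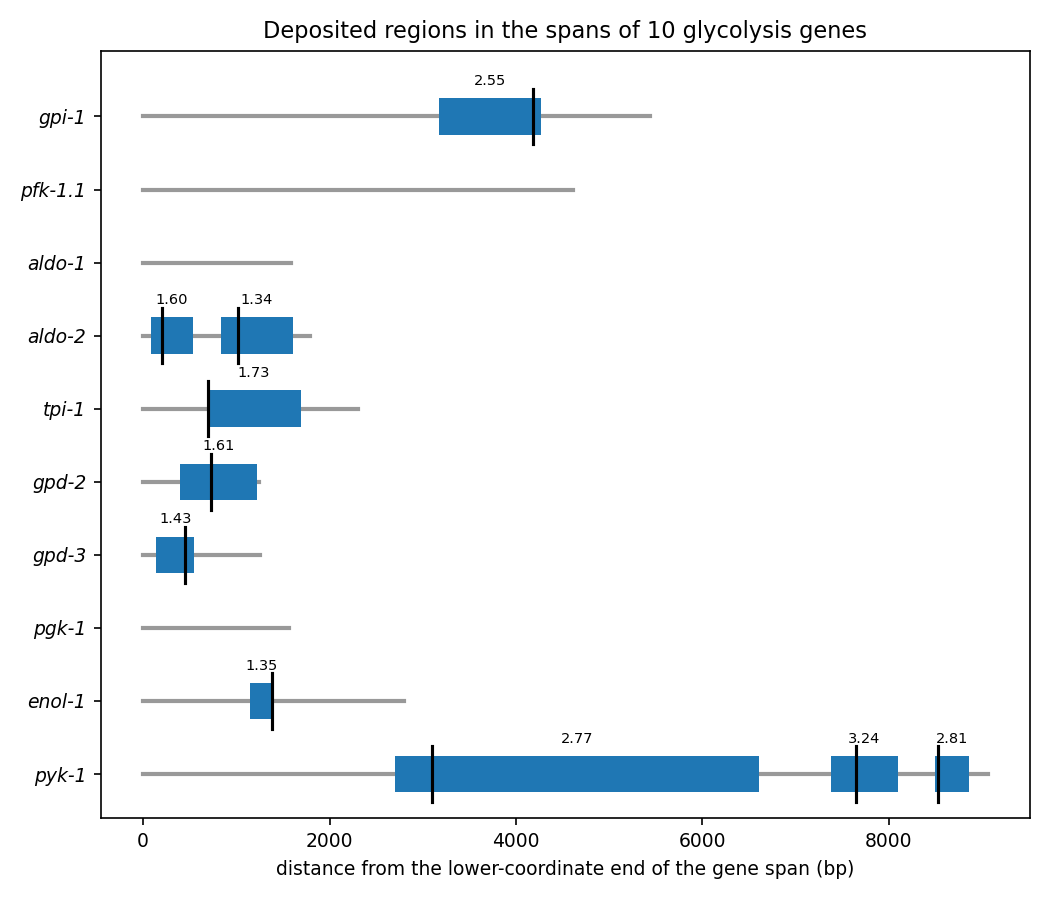
The 10 gene spans (grey lines) run from their lower-coordinate end, in bp, with the deposited regions as blue bars, the summits as black ticks and the authors' fold above each bar. pyk-1 has 3 regions and aldo-2 has 2, while the lines of pfk-1.1, aldo-1 and pgk-1 are empty.

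In the upper part of the pathway, gpi-1 and aldo-2 carried regions. gpi-1 (Y87G2A.8, chromosome I, 13576148 to 13581585) encodes glucose-6-phosphate isomerase, which turns glucose 6-phosphate into fructose 6-phosphate. Its region at 13579327 to 13580413 was enriched 2.55-fold over control (−log10 q 5.15). The summit held 36 reads (exact 95% Poisson interval 25.2 to 49.8) over a control level of 13.5 reads, which is the lowest control level in the list. Of the 1207 regions, 305 lay at or next to this lowest level, so the value is not particular to gpi-1. It may be a minimum set by the caller and not the depth of the control at gpi-1, which was not tested. The regions of dlat-2, gsy-1, tps-2, tre-3, tre-5 and T25B9.9, given below, had the same control level. Its pileup was the smallest among the 10 regions. The region covered 19.99% of the gene span, and its summit lay at 76.9% of the span counted from the lower-coordinate end.

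pfk-1.1 (Y71H10A.1, chromosome X, 2940872 to 2945478) encodes a phosphofructokinase, the enzyme of the committed step, and in C. elegans it is known for its part in the energy supply of synapses. No region fell in its 4607 bp. The list gives no value for a gene without a region, so neither its coverage nor an upper limit on its enrichment can be stated; the same holds for aldo-1 and pgk-1.

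Of the 2 aldolase genes, aldo-2 was in the list and aldo-1 was not. Aldolase splits fructose 1,6-bisphosphate into the triose phosphates. aldo-2 (F01F1.12, chromosome III, 5874678 to 5876470) carried 2 regions, and aldo-1 (T05D4.1, chromosome III, 13563346 to 13564937) carried 0, with its nearest region 39285 bp away. The first region of aldo-2, at 5874766 to 5875208, was enriched 1.60-fold with a −log10 q of 20.04, the highest of the 10 regions (142nd of 1207). Its summit held 499 reads (456 to 545) over a control level of 312. The second, at 5875510 to 5876290, was enriched 1.34-fold (−log10 q 8.52), from 542 reads (497 to 590) over 405. The intervals of the pileups overlapped, and the control level was higher under the second summit. The gap between the regions was 301 bp, and together they covered 68.3% of the span, the largest share among the 10 genes. The span of aldo-2 shares 25 bp with that of F01F1.3, but neither region reaches it. aldo-1 and aldo-2 resemble each other in sequence, and the assignment of reads that match both is not described in the labels.

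The triose phosphate isomerase gene had a weak region. tpi-1 (Y17G7B.7, chromosome II, 12036835 to 12039139) encodes the enzyme that interconverts the products of aldolase. Its region at 12037517 to 12038523 was enriched 1.73-fold (−log10 q 2.62). The summit, 13 bp from the start of the region, held 55 reads (41.4 to 71.6) over a control level of 31.3.

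**Figure D2:**
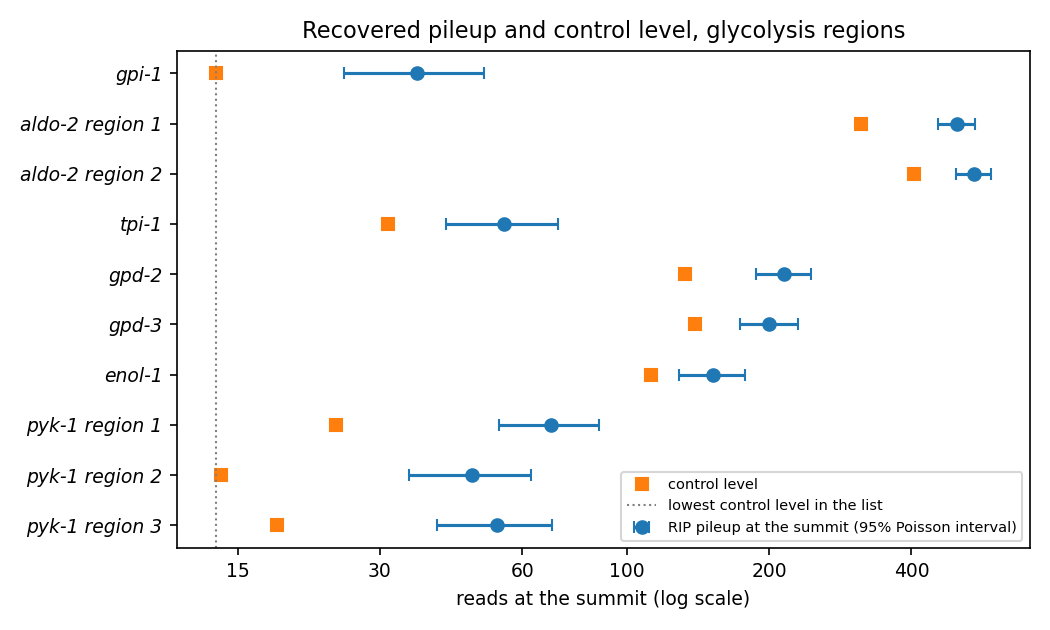
Reads at the summit of each of the 10 regions on a log scale: blue points are the recovered RIP pileups with exact 95% Poisson intervals, orange squares the control levels, and the dotted line the lowest control level of the list (13.5 reads). aldo-2 has the deepest summits with 499 and 542 reads, and gpi-1 the shallowest with 36.

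The lower part of the pathway starts with glyceraldehyde-3-phosphate dehydrogenase, which makes NADH. Its genes gpd-2 (K10B3.8, chromosome X, 3113443 to 3114689) and gpd-3 (K10B3.7, chromosome X, 3112091 to 3113341) lie 101 bp apart and are known to be transcribed together with mai-1 as an operon. The region of gpd-2, at 3113838 to 3114661, was enriched 1.61-fold (−log10 q 8.75), from 215 reads (187 to 246) over a control level of 133. The region of gpd-3, at 3112232 to 3112640, was enriched 1.43-fold (−log10 q 4.47), from 200 reads (173 to 230) over 139. The intervals of the 2 pileups overlapped. The regions themselves differed in extent: that of gpd-2 covered 66.1% of its span and that of gpd-3 covered 32.7%, with 1197 bp between them. mai-1, which encodes a homologue of mitochondrial ATPase inhibitors and whose span begins 2 bp beyond gpd-2, had 0 regions; it was looked up after the values of its neighbours were seen. gpd-2 and gpd-3 are nearly identical in coding sequence, so the reads of the pair may have been split or shared, and their values are uncertain one by one.

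pgk-1 (T03F1.3, chromosome I, 3867541 to 3869109) encodes phosphoglycerate kinase, which carries out the first ATP-forming step. It had no region, and the nearest one lay 33798 bp from it. At 1569 bp its span is similar to that of aldo-1 (1592 bp) and shorter than the median of all protein-coding genes (2005 bp). The spans of gpd-2 (1247 bp) and gpd-3 (1251 bp) are shorter still and carried regions. Any part of span length in the absence of a region was not tested.

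enol-1 (T21B10.2, chromosome II, 8931003 to 8933799) encodes enolase, which forms phosphoenolpyruvate. Its region at 8932155 to 8932384 was 230 bp wide, the narrowest width that occurs in the whole list. The fold was 1.35 and the −log10 q 2.09, the weakest q-value of the 10. The summit was the last base of the region and held 152 reads (129 to 178) over a control level of 112. The region covered 8.22% of the gene span.

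pyk-1 carried the highest folds of the 10 genes. It encodes pyruvate kinase, which makes pyruvate and ATP in the last step. pyk-1 (F25H5.3, chromosome I, 9168432 to 9177488) had 3 regions, a number reached or passed by 59 of the 954 genes with a region (6.18%). Its span of 9057 bp is the longest of the 10. The first region, at 9171137 to 9175034, was 3898 bp wide (29th widest of 1207) and was enriched 2.77-fold (−log10 q 11.5). Its deepest point held 69 reads (53.7 to 87.3) over a control level of 24.3.

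The other two regions of pyk-1 lay toward the higher-coordinate end of the gene. The second, at 9175805 to 9176525, had the highest fold of the 10 regions, 3.24, which ranked 75th of 1207. It had 47 reads (34.5 to 62.5) over a control level of 13.8, with a −log10 q of 10.3. The third, at 9176925 to 9177284, was enriched 2.81-fold (−log10 q 9.12), from 53 reads (39.7 to 69.3) over 18.2. With the control level held fixed, the counting intervals of the 3 folds were 2.17 to 3.50, 2.40 to 4.29 and 2.12 to 3.66, so the 3 intervals overlapped. Gaps of 770 and 399 bp separated the regions, and together they covered 54.97% of the span. The second region contains the snoRNA gene F25H5.9 (9176327 to 9176453), and its summit lay 253 bp outside that gene. The regions have no strand, so reads of F25H5.9 and of pyk-1 in the overlap cannot be told apart.

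Folds and control levels divided the 10 regions in the same way. The 4 regions with control levels under 30 reads were those of gpi-1 and pyk-1, and their folds were 2.55 to 3.24. The 5 regions with control levels above 100 were those of aldo-2, gpd-2, gpd-3 and enol-1, with folds of 1.34 to 1.61; tpi-1 lay between, at 31.3 reads and a fold of 1.73. The whole list has the same relation. Its 721 regions with control levels under 30 had a median fold of 2.30 (range 1.61 to 5.66), and its 218 regions with levels above 100 had a median of 1.57 (1.11 to 3.92). At a high control level a smaller fold suffices to pass a q-value threshold, so folds from different levels do not form 1 scale.

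**Figure D3:**
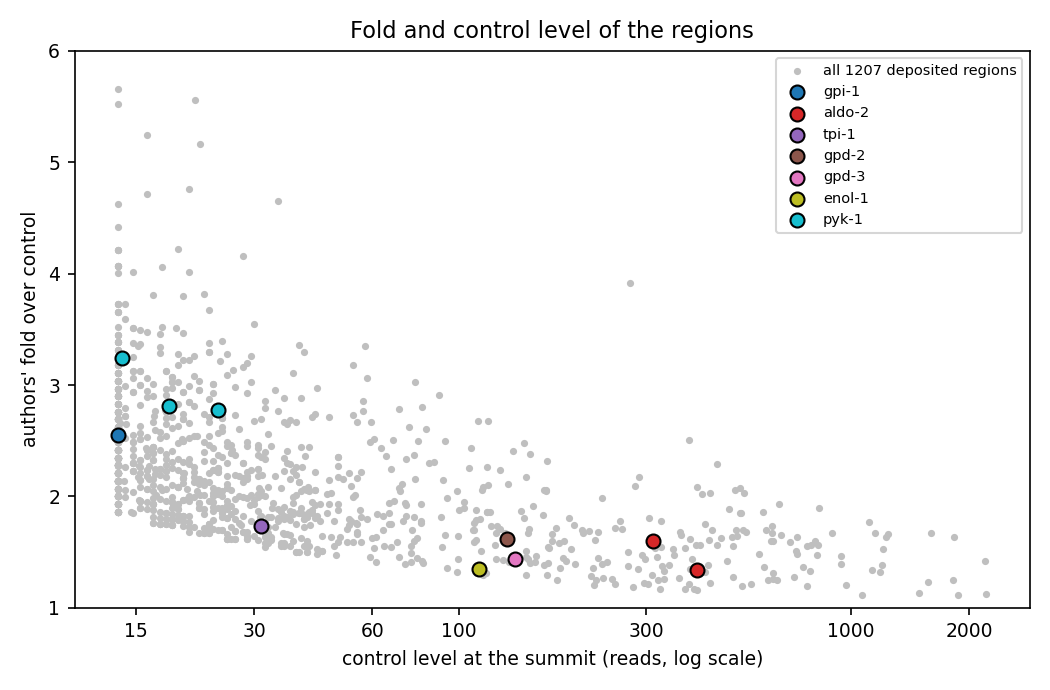
The authors' fold of each region against its control level in reads (log axis), with all 1207 regions in grey and the 10 regions of glycolysis genes in colour. The regions of gpi-1 and pyk-1 lie at control levels under 30 with folds of 2.55 to 3.24, and those of aldo-2, gpd-2, gpd-3 and enol-1 lie above 100 with folds of 1.34 to 1.61.

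Each region was therefore also ranked by fold among the regions whose control level was within 1.5-fold of its own. On that scale 5 of the 10 regions were above the median fold and 5 below it. The 3 regions of pyk-1 ranked 72nd of 404, 57th of 549 and 159th of 688, in the order of their positions. gpi-1 ranked 187th of 531, and the first region of aldo-2 ranked 25th of 70 with its fold of 1.60 against a median of 1.47. Below the median were the second region of aldo-2 (54th of 72), gpd-2 (55th of 93), gpd-3 (70th of 89), tpi-1 (263rd of 331) and enol-1 (91st of 98). enol-1 was close to the lowest fold found at such control levels, 1.29. These ranks describe 1 list and carry no test.

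Counted by gene, with the region of highest fold standing for each, the median fold of the 7 glycolysis genes was 1.61, against 2.16 for all 954 genes with a region. The median control level of the 10 regions was 71.8 reads, against 23.0 in the whole list, and the median pileup was 110.5 against 55. Folds of at least 2 occurred in 4 of the 10 regions and in 705 of the 1207. Folds tended to be lower at higher control levels here, and the part of control level in the lower median was not tested.

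The other genes of glycolysis, and the pathways that feed or drain it, were read by the same overlap rule. Of 65 genes in these 6 lists, 24 (36.9%) carried a region, against the 4.77% of all protein-coding genes. The background may include genes with no expression in these worms. Expression was not measured in the list, so these shares were not compared by a test. The median over the 24 genes of the highest fold was 2.09.

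Among the other genes of glycolysis itself, 1 of 8 carried a region. It was ipgm-1, the phosphoglycerate mutase gene between the steps of pgk-1 and enol-1, with folds of 2.23 (34 reads over 14.7) and 1.75 (41 reads over 23.0). The hexokinase genes hxk-1, hxk-2 and hxk-3, the second phosphofructokinase gene pfk-1.2, gpd-1, gpd-4 and pyk-2 had none. Of the steps from glucose to pyruvate, those of hexokinase, phosphofructokinase and phosphoglycerate kinase thus had no gene with a region, and the others had at least 1. For pyruvate kinase this was pyk-1 and not pyk-2, and for the dehydrogenase it was gpd-2 and gpd-3 and not gpd-1 or gpd-4. The list gives no value for a gene without a region, and the assignment of reads that match several genes is not described. A preference among these copies therefore cannot be stated.

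Gluconeogenesis had 4 of 5 genes with a region, among them those of its one-way enzymes. The phosphoenolpyruvate carboxykinase gene pck-2 had folds of 2.06 and 1.66, from 340 and 287 reads, and pck-1 had 1.68 from 48 reads. fbp-1, the fructose-1,6-bisphosphatase gene that opposes phosphofructokinase, had 1.61 from 47 reads over 28.7. pyc-1, the pyruvate carboxylase gene, had 3 regions with folds of 2.07, 1.67 and 1.94, and pck-3 had none.

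The routes that take up pyruvate and side products were also represented. In the pyruvate and lactate list 2 of 9 genes carried a region: dlat-2 (2.97, 42 reads over 13.5) and pdhb-1 (2.22, 65 reads over 28.7), both of the pyruvate dehydrogenase complex, while the lactate dehydrogenase gene ldh-1 had none. In the pentose phosphate list 2 of 6 did, the transketolase gene tkt-1 (2.30, 194 reads over 83.6) and T25B9.9 (2.21, 31 reads over 13.5, in a region shared with inpp-1).

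Of the glycogen and trehalose genes, 5 of 13 carried a region. The glycogen synthase gene gsy-1 led with a fold of 2.69 from 38 reads over 13.5. The trehalose synthase gene tps-2 had 2.28, the trehalase genes tre-5 and tre-3 had 2.28 and 2.21, and the glycogen phosphorylase gene pygl-1 had 1.96. The region of tre-5 also overlapped sptl-1.

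The citric acid and glyoxylate cycle list had 10 of 24 genes with a region. suca-1, a gene of succinyl-CoA synthetase, was highest with a fold of 3.52 from 64 reads over 17.5, followed by ogdh-1, of the oxoglutarate dehydrogenase complex, with 4 regions of 3.02, 2.20, 2.06 and 1.70. The succinate dehydrogenase genes mev-1 and sdha-1 had 2.10 and 1.82. In the other genes with a region the highest fold per gene was 1.95 for idh-1, 1.90 for dlst-1, 1.80 for icl-1, 1.78 for aco-1, 1.56 for sucl-1 and 1.40 for the citrate synthase gene cts-1. icl-1, the glyoxylate cycle gene through which fat carbon enters gluconeogenesis, had 4 regions, the lowest at 1.29.

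**Figure D4:**
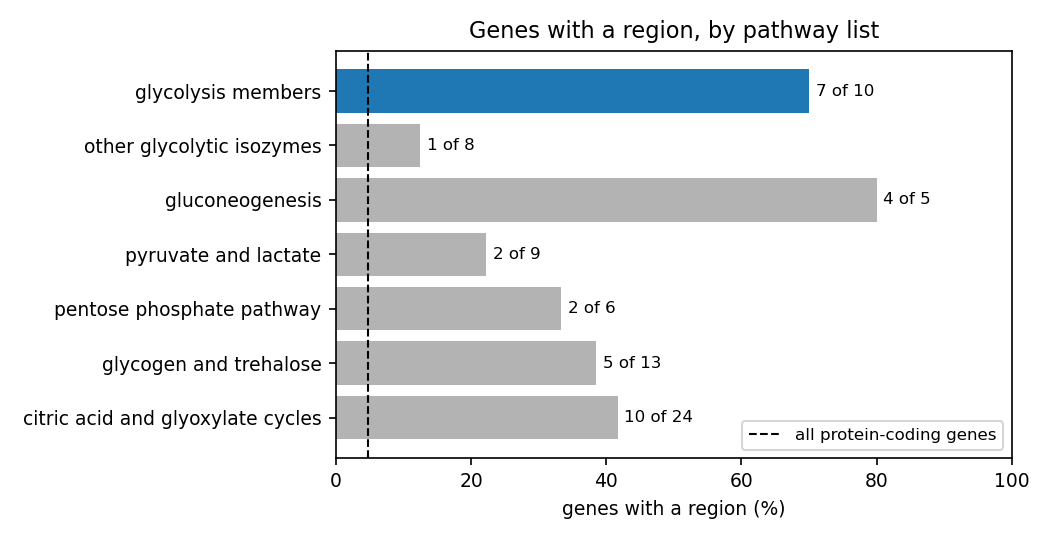
Bars give the percentage of genes with a region, from 0, with the number of genes beside each bar. Blue marks the glycolysis genes described here (7 of 10). Grey marks 6 further lists, of other glycolysis genes and of neighbouring pathways. The dashed line marks the 4.77% of all protein-coding genes. Each list lies to the right of it, and the grey bars run from 1 of 8 to 4 of 5 for gluconeogenesis. The 1 of 8 belongs to the list labelled other glycolytic isozymes, which also holds genes of steps outside the 10 members.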

How the data were processed

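RIP-seq libraries of WD656 and N2 worms were compared by the submitters, and the file used here is their list of regions specific to WD656. STAR and deepTools are named in the submitters' processing notes, without versions or roles; the sources used here do not name the peak caller, its control, the genome build or the rule for strain specificity. No header comes with the deposited table. From its values, it holds the authors' score, a fold (a ratio over control), −log10 p, −log10 q, a summit offset and an unlabelled column. The score equalled 10 times −log10 q rounded down in 1207 of 1207 regions.

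Pileup k and control level c were solved from fold = (k + 1) / (c + 1) and p as the Poisson probability of more than k reads at level c. With a tolerance of 0.02, 1166 of 1207 solutions were whole numbers, as were 1061 of 1061 solutions below 300 reads. The solving was tested on simulated data made with the same formulas, which cannot show that the caller used them. Intervals are exact 95% Poisson intervals on pileups; reads are not independent molecules, so the intervals cover counting error only.

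A region was assigned to a gene span of RefSeq WBcel235 by at least 1 shared base, without strand or exons, which were not used here. Positions are 1-based. All 10 glycolysis genes and all 65 genes of the neighbouring lists matched by symbol. Members and lists were chosen with earlier results of these data known. The genes named are the members, each listed gene with a region, and others where the text says why. Alternatives were the overlap rule, regions over 2 genes, stricter fold and q limits, and the summary of folds. Calculations used scipy 1.17.1, numpy 2.4.6 and pandas 2.3.3 in Python 3.11.15, with matplotlib 3.10.9 for plots.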

Additional observations from a re-analysis of the deposited data

Results flagged for a closer look

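The deposited list has an 11th column with the values 0, 1 and 2 and no label, which no comparison above uses. It was above 0 in 4 of the 10 regions of glycolysis genes and in 299 of all 1207 regions (24.8%). The 4 were both regions of aldo-2 and that of enol-1, with the value 1, and that of gpd-2, with the value 2, which occurs in 12 regions of the list. gpd-3, tpi-1, gpi-1 and the 3 regions of pyk-1 had 0. The column moved with the control level: it was above 0 in 153 of 218 regions with control levels above 100 reads (70.2%) and in 58 of 721 with levels under 30 (8.04%). All 4 of the glycolysis regions concerned had control levels above 100. The sources used here do not say what the column counts.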

How the results depend on the processing

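No paired analysis was possible because the list has no values by library, which also means that leaving out a replicate was not possible. The 7 glycolysis genes with a region were the same genes when the summit, or at least 50% of each region, had to lie in the span, and without regions over 2 or more protein-coding genes, where 22 of the neighbouring genes remained. A fold of at least 2 left 2 of them, gpi-1 and pyk-1, and 14 of the 24 neighbouring genes, with 2.98% of all protein-coding genes. The 603 regions with the highest folds left the same 2 and 11, with 2.62% of all. A −log10 q of at least 5 left 4 (aldo-2, gpd-2, gpi-1 and pyk-1) and 9, with 2.9% of all. Keeping only regions whose unlabelled value was above 0, an alternative chosen after seeing the data, left 3 (aldo-2, enol-1 and gpd-2) and 8, with 1.39% of all. Each of these limits leaves fewer regions by construction. The median fold of the 7 genes was 1.61 with the highest or the mean fold per gene and 1.67 over the 10 regions. With control levels within 2-fold in place of 1.5-fold, 5 regions were again above the median.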
